A study of Homo sapiens with 4 samples.

Results

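The albumin family on chromosome 4 consists of ALB, AFP, AFM and GC, 4 of the 20033 coding genes annotated by GENCODE, and the chromatin accessibility of their loci was examined here in HepG2 cells. Each gene was given a window of its annotated body with 20 kb on either side, and every accessible region that overlapped a window was taken. Peaks of different libraries that shared 1 bp or more were joined into 80551 regions, of which 16 lay in these windows. The 4 ATAC-seq libraries were made from HepG2, an established hepatocellular carcinoma line labelled wild type, with 50000 cells per library. Both control libraries came from untreated cells, and both tazemetostat libraries from cells given 5 µM tazemetostat, dissolved in DMSO, for 48 h. The labels do not say whether the controls received DMSO or whether the replicates were separate cultures, so the spread between them may be technical. Tazemetostat inhibits EZH2, the enzyme that methylates lysine 27 of histone H3 at silenced genes, and the comparison asks where chromatin opened or closed after that inhibition.

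The family encodes secreted carrier proteins made mainly by hepatocytes. ALB encodes serum albumin, the main protein of blood plasma. AFP encodes alpha-fetoprotein, the fetal counterpart of albumin, which is silenced in the liver after birth and is often made again in hepatocellular carcinoma. AFM encodes afamin, which carries vitamin E and Wnt proteins, and GC encodes the vitamin D binding protein. In the liver these genes are driven by factors such as HNF4, FOXA and C/EBP, which act at the promoters and at enhancers lying upstream of AFP and ALB.

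In hg38, ALB spans chr4:73397114-73421482, AFP spans chr4:73431138-73456174 and AFM spans chr4:73481745-73504001, all on the plus strand and in this order. The end of ALB lies 14.7 kb before the canonical start of AFP, and the end of AFP lies 25.6 kb before AFM, so the windows of these genes overlap and are not independent. GC lies apart at chr4:71741696-71804041 on the minus strand, 1.59 Mb from ALB. The GENCODE bodies of ALB, AFP and GC begin before the canonical start, which lies at 73404287 for ALB, 73436221 for AFP and 71784079 for GC. Distances below are measured from the centre of a region to the canonical start of the gene it was assigned to. All coordinates are those of hg38.

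The sequences that the results turn on are given from 5′ to 3′ on the plus strand, in lower case, with motif matches in capitals. The first 3 are the 250 bases before the start of ALB, AFP and AFM from RefSeq (GRCh38.p14), shown because no library had a peak there. The RefSeq table matched 3 of the 4 genes, and no promoter is printed for GC.
ALB promoter, chr4:73404037-73404286: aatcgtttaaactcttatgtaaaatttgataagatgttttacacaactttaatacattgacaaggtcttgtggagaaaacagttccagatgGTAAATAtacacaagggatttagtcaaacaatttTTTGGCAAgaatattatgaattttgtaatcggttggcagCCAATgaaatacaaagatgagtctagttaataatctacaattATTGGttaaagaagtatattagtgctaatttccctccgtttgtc
AFP promoter, chr4:73435971-73436220: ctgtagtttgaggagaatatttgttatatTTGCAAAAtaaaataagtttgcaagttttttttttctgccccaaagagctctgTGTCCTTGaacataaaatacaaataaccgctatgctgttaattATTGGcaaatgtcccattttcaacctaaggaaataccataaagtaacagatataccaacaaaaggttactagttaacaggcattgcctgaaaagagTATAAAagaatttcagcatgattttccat
AFM promoter, chr4:73481495-73481744: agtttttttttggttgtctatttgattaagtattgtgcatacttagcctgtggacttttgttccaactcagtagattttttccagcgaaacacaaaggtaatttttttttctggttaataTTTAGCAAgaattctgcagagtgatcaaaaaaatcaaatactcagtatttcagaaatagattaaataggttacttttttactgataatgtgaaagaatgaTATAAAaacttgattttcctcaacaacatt
The next 3 are the central 300 bases of regions read from hg38. They are the region called in every library, an ALB region called in both tazemetostat libraries only, and the region that stood highest over its local background.
AFP 3.6 kb upstream, called in all 4 libraries, chr4:73432431-73432730: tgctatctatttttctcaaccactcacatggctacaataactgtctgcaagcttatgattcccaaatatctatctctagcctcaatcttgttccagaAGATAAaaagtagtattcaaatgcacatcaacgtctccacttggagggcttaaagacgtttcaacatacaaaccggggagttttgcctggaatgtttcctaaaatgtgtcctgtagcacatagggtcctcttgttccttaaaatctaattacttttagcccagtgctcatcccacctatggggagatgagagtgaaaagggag
ALB 6.5 kb upstream, called in both tazemetostat libraries and no control, chr4:73397608-73397907: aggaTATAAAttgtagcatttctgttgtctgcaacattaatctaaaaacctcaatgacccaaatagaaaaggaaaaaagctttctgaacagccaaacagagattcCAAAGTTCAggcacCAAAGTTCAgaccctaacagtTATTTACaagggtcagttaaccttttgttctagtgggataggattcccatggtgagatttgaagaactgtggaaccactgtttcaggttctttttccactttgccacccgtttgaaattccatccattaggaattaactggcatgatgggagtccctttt
ALB 15.2 kb upstream, the highest over its local background, chr4:73388956-73389255: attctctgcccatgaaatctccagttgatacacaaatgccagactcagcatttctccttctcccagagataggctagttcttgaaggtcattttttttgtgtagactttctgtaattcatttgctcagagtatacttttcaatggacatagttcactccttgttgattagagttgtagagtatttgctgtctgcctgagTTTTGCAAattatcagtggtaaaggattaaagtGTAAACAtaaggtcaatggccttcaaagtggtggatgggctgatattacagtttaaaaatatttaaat

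The capitals mark exact matches on either strand. For HNF4 the letters searched were CAAAGTCCA or the variant CAAAGTTCA. For FOXA they were TGTTTAC or the variant TATTTAC, for C/EBP proteins TTGCNNAA and for the nuclear receptor NR5A2 CAAGGNCA. GATA factors were searched as AGATAA, the AP-1 complex as TGANTCA and the NF-Y complex as CCAAT. A promoter element, the TATA box, was searched as TATAAA or the variant TATATA. The TATA box began 30 bases before the start of AFM and 29 bases before that of AFP, and 10.8% of 22198 coding promoters of this length held its letters. C/EBP letters were found in all 3 promoters, against 7.50% of coding promoters. The GC content was 30.0% at ALB, 31.6% at AFP and 28.0% at AFM, where the median over coding promoters was 62.0%. These shares were not matched for GC content. Among the 15 regions whose letters were examined, HNF4 letters were found in 2, the ALB region 6.5 kb upstream with 2 matches and the AFP region 13.2 kb upstream with 1, whereas 2.92% of 78220 regions on the primary chromosomes held them. FOXA letters were present in 2 of the 15, the ALB regions 15.2 and 6.5 kb upstream, against 12.7% of all regions. GATA letters were present in 5 of the 15 (12.5% of all regions) and C/EBP letters in 4 (13.4%). NF-Y letters were present in 7 (30.9%) and TATA box letters in 4 (10.8%). NR5A2 and AP-1 letters were present in 0, against 9.91% and 11.4% of all regions. The central 300 bases of the AFP region 3.6 kb upstream held a single GATA match. Over its whole 973 bp there were 3 GATA matches, 2 C/EBP matches and 1 HNF4 match, and windows of that length held these letters at 37.1%, 35.3% and 4.70% of all regions. These 15 regions had a median GC content of 41.0%, ranging from 36.0% to 59.3%, compared with a median of 52.3% over all regions. These matches describe letters and are not evidence of binding.

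Each library was deposited as its own list of peaks, so a position without a peak has no value there. The value of a peak is its normalised tag count, the number of tags (aligned reads) in the peak per 10 M mapped tags of the library. Mapped tags ranged from 17191428 to 26564400, with the controls at 17.2 M and 23.8 M and the tazemetostat libraries at 19.8 M and 26.6 M. The libraries held from 26133 to 55313 peaks, and both tazemetostat libraries held more than both controls. Peaks took 4.32% and 5.69% of the mapped tags in the controls, and 11.5% and 9.81% under tazemetostat. This share cannot be told apart from the treatment, and normalised tag counts are scaled to all mapped tags, not to those in peaks. The fragment length in the file headers was 200 bp for the controls and 144 bp for the tazemetostat libraries, a setting that cannot be told apart from the treatment. The promoters of APOA1, APOA2, TTR and SERPINA1, 4 of 5 hepatocyte markers, had a peak in all 4 libraries; FGB had none. None of the 6 leukocyte, endothelial and fibroblast markers had a promoter peak in any library.

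No library had a peak at the promoter of ALB, AFP, AFM or GC, taken as 1 kb upstream to 100 bp downstream of the canonical start. Over all coding genes, 44.2% of promoters had no peak in any library. From the start of ALB the nearest peak lay 11.6 kb away in control replicate 1 and 1.81 kb away in control replicate 2. It lay 1.09 kb away in tazemetostat replicate 1 and 1.73 kb away in replicate 2. From the start of AFP the distance hardly varied, at 3.28, 3.31, 3.15 and 3.17 kb in the same order, since the same region was nearest in each library. For AFM the distances of 48.8 and 22.7 kb in the controls overlapped those of 22.9 and 4.60 kb under tazemetostat. Since no canonical start carried a peak, a search for promoters with a pattern like that of the family was not possible.

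GC had no peak at all. Its window of 102 kb was empty in all 4 libraries, as were 9.46% of the coding gene windows. The nearest peak to the body of GC lay 748 and 674 kb away in the controls, and 499 and 365 kb away under tazemetostat. The 16 regions therefore all lay in the 0.147 Mb covered by the windows of ALB, AFP and AFM. By comparison, the 1.55 Mb between the windows of GC and ALB also held 16 regions.

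Of the 16 regions, 6 were assigned to ALB, 7 to AFP and 3 to AFM. By the GENCODE bodies, 6 lay in a gene body, 6 upstream and 4 in the flank beyond the gene. Counted from the canonical starts instead, 4 lay in a body, 8 upstream and 4 in a flank. A single region overlapped an exon of a canonical transcript, in exon 10 of ALB.

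**Figure D1:**
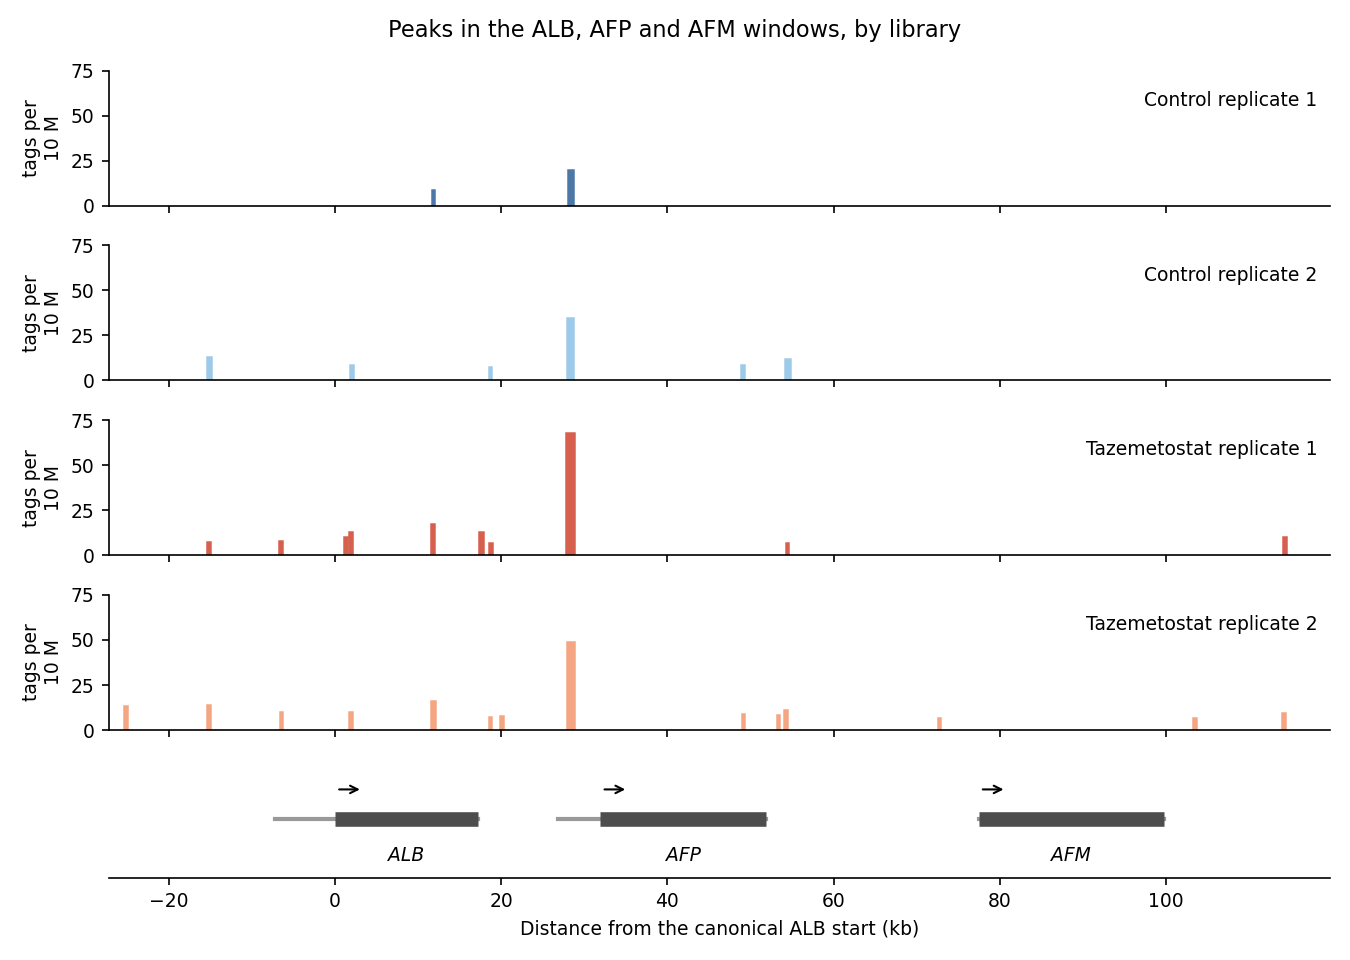
Peaks in the windows of ALB, AFP and AFM in each library. The x axis is the distance from the canonical ALB start in kb and the y axis the normalised tag count (tags per 10 M mapped tags); bars have the width of the peak, thick lines run from the canonical start to the gene end and thin lines cover the rest of the annotated body. The peak upstream of AFP is the highest in every library, and the number of peaks is 2 and 6 in the controls and 10 and 14 under tazemetostat.

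More peaks were called in the locus under tazemetostat. Control replicates 1 and 2 had 2 and 6 peaks there, and tazemetostat replicates 1 and 2 had 10 and 14. The groups did not overlap, and within each group the more deeply sequenced library had more peaks. The means were 4 ± 2.83 and 12 ± 2.83 (SD, n = 2 each), a difference of 8 peaks with p = 0.33 in the exact permutation test, two-sided, which is the smallest p that 2 against 2 libraries can give. This difference depended on how many peaks each library gave. With the same number of peaks from every library (26133, those with the highest scores), the control libraries had 2 and 4 peaks in the locus, tazemetostat libraries had 3 and 7, and the groups overlapped (difference 2; exact permutation p = 0.667, two-sided). With peaks at least 8-fold over the local background it held 2 and 3 against 6 and 7, a difference of 4. The summed normalised tag count was 28.5, 83.7, 161 and 179 in the same order, with 961, 2672, 4140 and 5338 bp covered by peaks. Its means were 56.1 ± 39.0 and 170 ± 12.5 (SD, n = 2 each; exact permutation p = 0.33), a difference of 114 that shrank to 61.3 with equal numbers of peaks. Per kb of peak the groups were closer, at 29.7 and 31.3 in the controls and 38.9 and 33.5 under tazemetostat (exact permutation p = 0.33, two-sided). Since the tazemetostat libraries held more peaks genome-wide, the peaks of the locus were also counted per 10000 peaks of the library. This gave 0.765, 1.73, 1.81 and 2.59, so control replicate 2 and tazemetostat replicate 1 were nearly equal on that scale (exact permutation p = 0.33, two-sided). As a share of the tags in all peaks, the locus took 0.660, 1.47, 1.40 and 1.82 per 10000, and on this measure the groups overlapped (exact permutation p = 0.667, two-sided).

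By the libraries in which they were called, 1 of the 16 regions was shared by all 4 libraries, whereas 20.4% of all regions were. Regions called in both tazemetostat libraries and neither control numbered 2 of 16, close to the 13.7% of all regions. None of the 16 was called in both controls and neither tazemetostat library, a pattern of 0.449% of all regions. Calls in at least 1 tazemetostat library and no control were found at 9 of the 16 regions (56.2%), against 47.3% of all regions. The reverse, at least 1 control and no tazemetostat library, was found at 0 of 16, against 13% of all regions. Whether the locus differed from all regions in these shares was not tested. Of the 7 regions with a control peak, 5 had it in control replicate 2 alone and 1 in control replicate 1 alone. The calling threshold in the file headers was 8.14, 6.72, 7.05 and 6.02 tags per 10 M in the 4 libraries. At 4 of the 14 regions without a peak in control replicate 1, the highest peak score of any other library was under the threshold of control replicate 1. The same held at 0 of 10 regions for control replicate 2, 1 of 6 for tazemetostat replicate 1 and 0 of 2 for tazemetostat replicate 2. These counts concern the calling threshold only. To be kept, a peak also had to stand at least 4-fold over the local 10 kb. That filter discarded 77.0% of the candidate peaks of control replicate 1 and 80.0% of those of control replicate 2. For tazemetostat replicates 1 and 2 the shares were lower, at 62.7% and 70.9%. Whether the filter discarded peaks at the 16 regions was not tested.

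The region 3.6 kb upstream of the canonical AFP start, chr4:73432094-73433067, was the only one called in every library and the highest of the locus in each. It lies within the GENCODE body of AFP but before the canonical transcript, and overlaps no annotated exon. The normalised tag count was 19.8 in control replicate 1 and 34.5 in control replicate 2, from 34 and 82 tags. It was 68.0 in tazemetostat replicate 1 and 48.9 in tazemetostat replicate 2, from 135 and 130 tags. Both tazemetostat values lay above both control values. The 95% Poisson intervals, which cover counting error only, were 13.7 to 27.6 and 27.4 to 42.8 in the controls and 57.0 to 80.5 and 40.9 to 58.1 under tazemetostat. The interval of control replicate 2 therefore overlapped that of tazemetostat replicate 2, while control replicate 1 was clear of both tazemetostat libraries.

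The group means were 27.1 ± 10.4 and 58.5 ± 13.5 (SD, n = 2 each), a ratio of 2.15. limma, run on log2(normalised tag count + 1), which understates changes of low values, gave a difference of 1.11 (SE 0.32, 95% interval 0.44 to 1.78), with a Benjamini-Hochberg adjusted p of 0.0170 over 15383 regions with exactly 1 peak in each library. It was the only region of the locus that could enter this test, and the call has to be read against the whole table. Of the regions tested, 42.7% were higher under tazemetostat and 0.247% lower, and the median difference was 0.70. A positive difference, called or not, was found at 95.4% of them. The difference at AFP was larger than that of 88.6% of the regions tested. When each library was centred on its own median, the difference was 0.35 (95% interval -0.25 to 0.95; limma, Benjamini-Hochberg adjusted p = 0.676). A rise at AFP beyond the shift of all regions did not pass the threshold. The size of the difference at AFP varied with the library left out, but it stayed positive each time. It was 0.72 without control replicate 1 and 1.50 without control replicate 2, where the medians of all regions tested were 0.57 and 0.80. Without tazemetostat replicate 1 or 2 it was 0.88 or 1.34, where those medians were 0.61 and 0.80. Each of these fits leaves 1 library in a group, so their calls are not given.

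**Figure D2:**
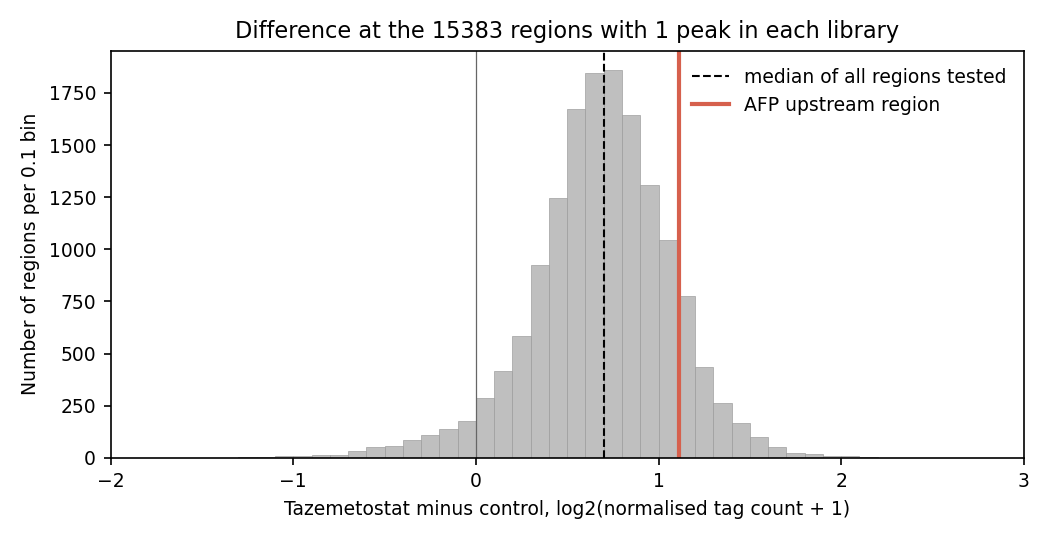
Tazemetostat minus control, as the limma difference in log2(normalised tag count + 1), on the x axis, and the number of regions per bin on the y axis, for the 15383 regions with 1 peak in each library. The AFP upstream region at 1.11 lies in the upper part of a distribution whose own median is 0.70.

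Part of the higher tag count went with a longer peak. The peak upstream of AFP was 661 and 761 bp long in the controls and 973 and 829 bp under tazemetostat. A stretch of 632 bp, chr4:73432282-73432914, was common to all 4 peaks. Both tazemetostat peaks reached further towards AFP than both control peaks, while their other ends overlapped between the groups. Per kb of peak the normalised tag count was 30.0 and 45.3 in the controls and 69.9 and 59.0 under tazemetostat, again without overlap and with a ratio of 1.71. limma on this density gave a difference of 0.78 (Benjamini-Hochberg adjusted p = 0.00571) where the median of all tested regions was 0.41. In that fit 5063 of the 15383 regions were called higher and 40 lower, and 92.9% of the differences were positive. The fold over the surrounding 10 kb did not separate the groups, at 13.1 and 10.7 in the controls and 9.37 and 13.2 under tazemetostat. This fold sets a peak against its neighbourhood within 1 library. Within its library, the normalised tag count of this peak was higher than that of 76.3% and 92.3% of all peaks in the controls and of 97.5% and 95.3% under tazemetostat. It held 69.4% and 41.2% of the tags in the peaks of the locus in the controls, and 42.2% and 27.3% under tazemetostat, as further peaks were called around it.

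**Figure D3:**
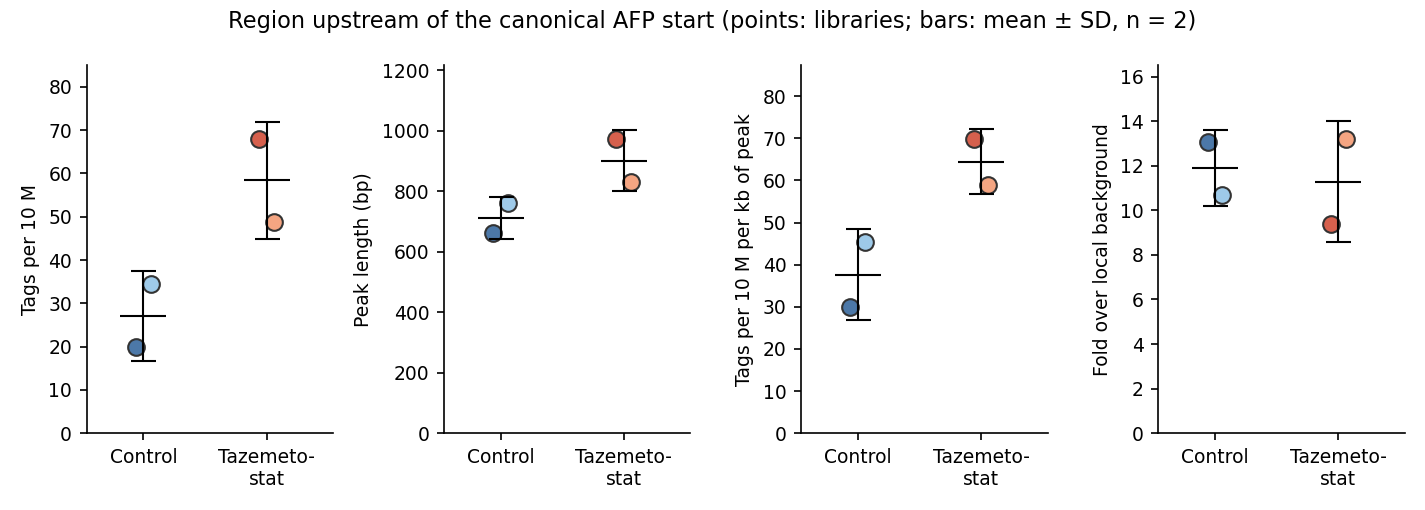
The region 3.6 kb upstream of AFP in each library, with the normalised tag count, the peak length, the normalised tag count per kb of peak and the fold over the local background on the y axes. Points are libraries and bars the mean ± SD (n = 2); the groups are apart in the first 3 measures (19.8 and 34.5 against 68.0 and 48.9 tags per 10 M) and overlap in the fold.

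The other 15 regions were lower than the AFP region. Their 28 peaks had normalised tag counts from 6.78 to 17.1, from 14 to 43 tags each. Where a library had no peak the level is unknown and is not 0.

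ALB had 3 regions upstream of its canonical start. The region 15.2 kb upstream, chr4:73388894-73389317, gave 13.0 in control replicate 2 and 7.56 and 13.9 under tazemetostat, with no peak in control replicate 1. The control value lay between both tazemetostat values. It stood 24.7-, 22.1- and 24.6-fold over the local background, higher than 98.6%, 96.3% and 98.4% of the peaks of those libraries. The region 25.2 kb upstream, chr4:73378897-73379272, was called in tazemetostat replicate 2 alone, at 13.2 and 12.2-fold over its surroundings. The region 6.5 kb upstream, chr4:73397584-73397931, is near the beginning of the annotated ALB body and was called in both tazemetostat libraries and neither control. Its normalised tag counts were 8.06 and 10.2, from 16 and 27 tags, at 10.8- and 14.3-fold over the local background. Its Poisson intervals were 4.61 to 13.1 and 6.70 to 14.8. The calling thresholds, 8.14 and 6.72 in the controls, apply to the peak score and not to this count. The scores here were 8.06 and 10.5 per 10 M.

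Within ALB, 3 regions followed the canonical start. The region 1.9 kb downstream, chr4:73405996-73406401 in an intron, gave 8.40 in control replicate 2 and 13.1 and 10.2 under tazemetostat. Beside it, 1.3 kb downstream, chr4:73405373-73405780 was called in tazemetostat replicate 1 alone at 10.1. The region 11.8 kb downstream, chr4:73415787-73416302, overlaps exon 10 of ALB and had the highest mean normalised tag count of the gene. It gave 8.73 in control replicate 1 and 17.1 and 16.2 under tazemetostat, and had no peak in control replicate 2. The control value, from 15 tags with an interval of 4.88 to 14.4, was under both tazemetostat values, whose intervals were 11.9 to 23.9 and 11.7 to 21.8. The fold over the local background ran the other way, from 10.3 in the control to 8.96 and 5.48 under tazemetostat.

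Between ALB and AFP lay 3 regions, assigned to AFP as upstream. The region 14.3 kb before AFP, chr4:73421663-73422150, begins just past the end of ALB and was called in tazemetostat replicate 1 alone at 13.1. The region 13.2 kb before AFP, chr4:73422793-73423157, was nearly level in the libraries that called it, at 7.56 in control replicate 2 and 7.05 and 7.15 under tazemetostat. The region 11.9 kb before AFP, chr4:73424089-73424470, was called in tazemetostat replicate 2 alone at 7.91. Their folds over the local background ranged from 4.01 to 6.85, where the caller kept peaks of at least 4.

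Towards the end of AFP, the region 17.2 kb after its canonical start, chr4:73453184-73453571, spans the start of another annotated AFP transcript, which lies 113 bp from the centre of the region. It gave 8.40 in control replicate 2 and 8.66 in tazemetostat replicate 2, with no peak in either replicate 1. Beyond the gene, the region 22.4 kb after the start, chr4:73458346-73458996, gave 11.8 in control replicate 2 and 7.05 and 11.3 under tazemetostat. The control value was the highest of the 3. The region 21.4 kb after the start, chr4:73457448-73457748, was called in tazemetostat replicate 2 alone at 8.28.

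AFM had no peak in its body in any library and none in its whole window in the controls. Its window held 1 peak in tazemetostat replicate 1 and 3 in tazemetostat replicate 2. The region 36.8 kb past its start was called in both tazemetostat libraries and neither control, at 10.1 and 9.41 from 20 and 25 tags. It stood 18.1- and 14.8-fold over the local background, higher than 93.7% and 92.7% of the peaks of those libraries. The other 2 regions, 4.8 kb before and 26.0 kb after the start, were called in tazemetostat replicate 2 alone, each at 6.78 from 18 tags. ALB and AFM, 2 of the 4 genes, thus had a region called in both tazemetostat libraries and neither control in their windows, as did 40.4% of coding genes. With equal numbers of peaks per library, 0 such regions were left in the locus.

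**Figure D4:**
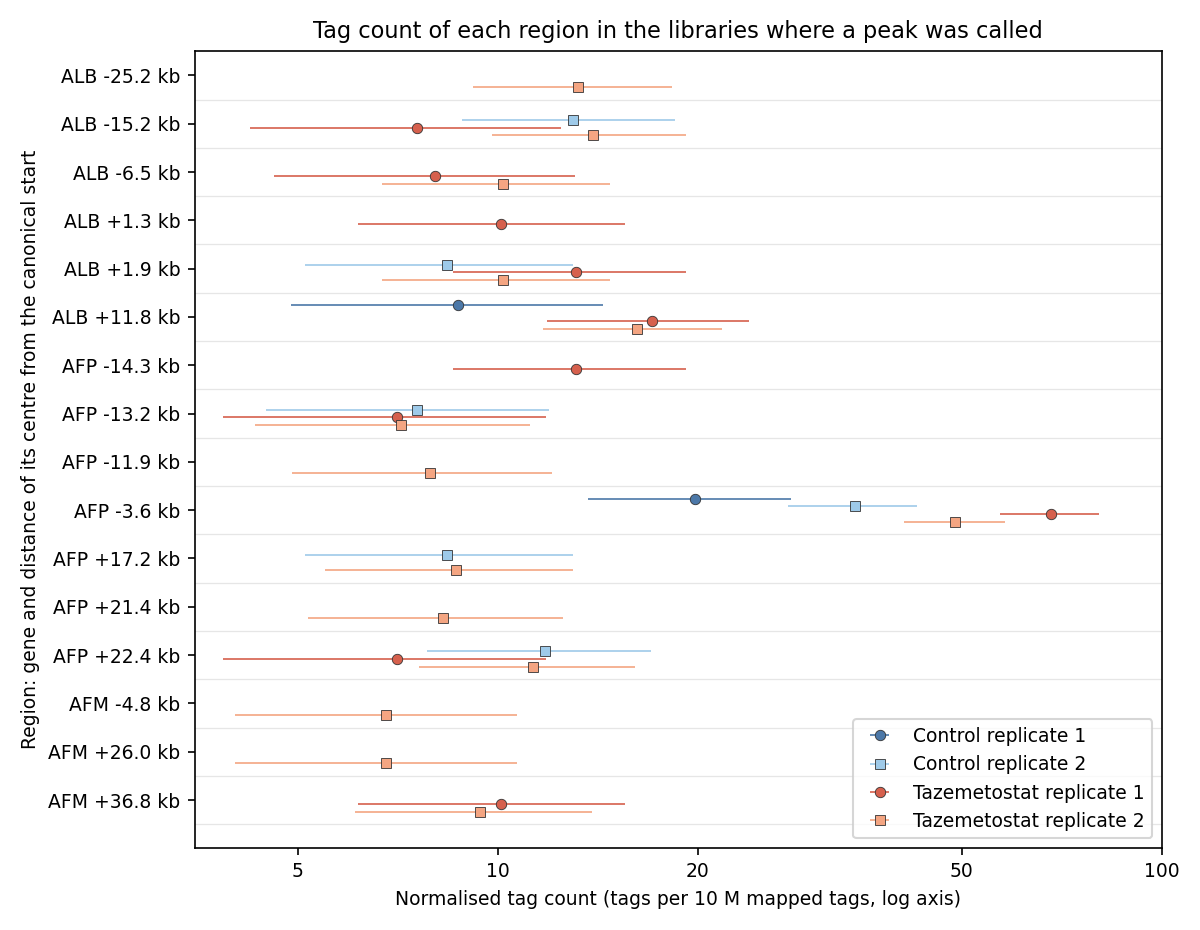
Normalised tag count (x axis, log scale, tags per 10 M mapped tags) of the 16 regions of ALB, AFP and AFM in the libraries where a peak was called, with 95% Poisson intervals; the y axis gives the gene and the distance of the region from its canonical start. Apart from the AFP region 3.6 kb upstream, all values lie between 6.78 and 17.1, and a missing point means that no peak was called.

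Of 10 genes for factors known to act on the locus, 5 had a promoter peak in all 4 libraries, and CEBPB had none. Among all coding promoters, 44.2% had no peak in any library, and the share with a peak in all 4 was not counted. HNF4A, the nuclear receptor of hepatocyte identity, had normalised tag counts of 22.7 and 42.9 in the controls and 66.0 and 56.8 under tazemetostat at its promoter (limma difference 0.95, SE 0.32, Benjamini-Hochberg adjusted p = 0.0289). NR5A2, a nuclear receptor that activates AFP, had 12.2 and 18.1 against 28.7 and 30.9 (limma difference 0.96, SE 0.30, adjusted p = 0.0231). At both, each tazemetostat value was above each control value. The same held at FOXA1, FOXA3 and ZBTB20, and so at all 5 promoters called in every library. Among all regions tested, 95.4% had a positive limma difference, while the share whose groups were apart was not counted. HNF4A and NR5A2 were the 2 called higher of the 6 that could be tested, where 42.7% of all regions tested were higher. The other 4 did not pass, and the median difference of 0.69 was close to the 0.70 of all regions tested. ZHX2 and ZBTB20, both repressors of AFP, gave differences of 0.75 and 0.63 (limma adjusted p = 0.0696 and 0.0803), although the region of ZHX2 reached into its promoter in only 2 libraries.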

How the data were processed

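Peak lists of 4 HepG2 ATAC-seq libraries were analysed, grouped by their titles. By the study's methods and processing notes, the authors used Trim Galore 0.6.6 for trimming, Bowtie2 2.3.5.1 for alignment to hg38 with inserts up to 2000 bp, and HOMER 4.11.1 for tags and peaks. The file headers show that HOMER ran on 1 library at a time, with an initial peak size of 300 bp and later stitching, and kept peaks at least 4-fold over the local 10 kb at a p-value of 0.0001. The false discovery rate is 0.001 per the file headers and 0.05 in the methods. A shift of tags for the transposase is not given in the sources used here.

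Per the file headers, the normalised tag count is a signal in tags per 10 M mapped tags. The deposited score was read as the tags of an initial peak and used for the threshold check and for ranking. Of the deposited ratio columns, the fold over local background was used and the clonal fold was not. The deposited p-value was not used. Tag numbers for the Poisson intervals are the normalised tag count times the mapped tags (17.2 to 26.6 M per library), and in 100% of peaks this came within 0.25 of an integer.

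Library totals were compared with the exact permutation test. limma 3.58.1 (lmFit and eBayes, R 4.3.3) was fitted over all regions with 1 peak per library on log2(normalised tag count + 1), and Benjamini-Hochberg adjusted p-values under 0.05 were called. Gene bodies and canonical starts are from GENCODE release 44. The members, gene lists, motifs and tests were chosen with earlier results of these data known. Named in full by rule are the regions at each start, the 2 highest of each gene, those past the limma threshold and those called in both libraries of 1 group and neither of the other. Some genes, motifs and sequences are not reported here.

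The code was tested on simulated data. The limma step recovered the size of known changes under both settings simulated, but called none of them under the first; a second setting, with a larger change and smaller spread, was added after that was seen. An uncalled difference is therefore not evidence of no change. Alternatives covered the local fold, equal numbers of peaks, the window, the joining rule, the scaling, the pseudocount, a filter on low values, each library left out and a replicate block.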

Additional observations from a re-analysis of the deposited data

How the results depend on the processing

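The limma difference at AFP and the differences in peaks and tags per library stayed positive under every alternative that was run. The other results are counts of regions, which have no sign to reverse. Of the region counts and limma results under an alternative, 41 stayed on their side of the threshold or within the limit for a count. Another 13 moved and 4 lost their call, some of them in fits that leave 1 library in a group. The limma call at AFP is tallied both as a count and as its own difference. Many of the 41 are counts that were 0 throughout, so the tally does not measure stability. The permutation tests of peaks and tags per library could not pass the threshold under any setting and say nothing of stability. Their difference of 8 peaks became 4 at a local fold of at least 8 and 2 with equal numbers of peaks. There the difference in summed normalised tag count of 114 became 61.3. With 1 library left out the differences ranged from 6 to 10 peaks and from 86.4 to 142 in summed normalised tag count. The 2 regions called in both tazemetostat libraries and no control became 0 with equal numbers of peaks per library and 1 with windows of 10 kb, and numbered from 3 to 7 when 1 library was left out, which relaxes the definition. The 1 region called in every library became 2 with windows of 40 kb, an alternative chosen after seeing the data, and from 1 to 5 with 1 library left out. The AFP region 3.6 kb upstream was the 1 region higher in limma. With each library centred on its median its difference fell to 0.35 (adjusted p = 0.676) and 0 regions of the locus passed; over all regions limma then called 0, although 468 rose and 1188 fell before adjustment at p under 0.05. With 1 library left out the difference ranged from 0.72 to 1.50, in fits that leave 1 library in a group. Counting gene bodies from the canonical start, also chosen after seeing the data, put 8 regions upstream in place of 6.

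Libraries with the same replicate number shared no deviation: those of the libraries numbered 1 from their group means had a correlation of -0.00246 over 15383 regions. With 2 libraries per group this is a single comparison, and it cannot show whether same-numbered libraries were processed together. With the replicate block the difference at AFP was 1.11 (limma, adjusted p = 0.0148), and over all regions 5046 were higher in place of 6569. Planned tests with count models were not run, so whether they would make the same call at AFP is not known. The peaks of the 15 lower regions held 14 to 43 tags each.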

Other observations

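Just outside the windows, a region 28.7 kb before the ALB start, chr4:73375332-73375763, was called in all 4 libraries, with normalised tag counts of 8.14 and 11.3 in the controls and 11.6 and 15.1 under tazemetostat. Past AFM, 30.0 kb after its end, chr4:73533693-73534249 was called in both tazemetostat libraries at 17.1 and 18.8, from 34 and 50 tags, and in neither control. In tazemetostat replicate 2 its value was above that of every region within the windows except the AFP region 3.6 kb upstream.

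Of the 6 neighbouring genes examined, COX18 and ANKRD17 had a promoter peak in all 4 libraries, and SLC4A4, NPFFR2 and ADAMTS3 had none. COX18, which acts in the assembly of cytochrome c oxidase, had normalised tag counts of 19.2 and 35.7 in the controls and 53.9 and 41.0 under tazemetostat (limma difference 0.82, Benjamini-Hochberg adjusted p = 0.0480). ANKRD17 had 19.2 and 21.8 against 31.2 and 36.9 (limma difference 0.70, adjusted p = 0.0572). Over all regions tested, 42.7% were higher and the median difference was 0.70. RASSF6, a member of the RAS association domain family, had a promoter peak in the tazemetostat libraries alone, at 10.1 and 13.9. The medians over all peaks of those libraries were 14.6 and 12.8. Of all regions, at promoters or elsewhere, 13.7% were called in both tazemetostat libraries and neither control.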
